A study of Mus musculus with 12 samples.

Results

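The microRNA miR-126 was followed in colon and whole blood of mice with dextran sulfate sodium (DSS) colitis, an ulcerative colitis (UC) model in which a polymer in the drinking water damages the colonic epithelium. The members were the 4 mature miRNAs of the mouse genes Mir126a and Mir126b (listed as mmu-mir-126a-3p, mmu-mir-126a-5p, mmu-mir-126b-3p and mmu-mir-126b-5p, and written here as miR-126a-3p and so on), out of 1978 mature miRNA names in the count table. They were taken because miR-126a-3p moved in opposite directions in colon and blood with DSS, so the values of that contrast in both tissues chose them and are given here as a description, without a test. Small RNA was sequenced from the colon and the whole blood of the same 6 mice, which made 12 libraries. The mice were C57BL/6 wild-type males aged 8 weeks, of which 3 drank water with DSS (1.5% wt/vol) over 7 days and 3 controls of the same schedule drank plain water, and all were sacrificed on day 8. The 6 mice were selected by their disease activity index, a score of weight loss, stool and bleeding. Each library came from 1 tissue of 1 mouse.

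miR-126 is known as the endothelial miRNA: it lies within Egfl7, a gene of endothelial cells, and it supports vessel growth and integrity by holding down inhibitors of growth factor signalling such as Spred1 and the phosphoinositide 3-kinase subunit gene Pik3r2, and it limits the adhesion molecule Vcam1. It is also carried by platelets and megakaryocytes and by blood-forming stem cells, so whole blood receives it from cells as well as from the vessel wall. A hairpin precursor gives a 5p arm and a 3p arm, and the seed, bases 2 to 8 of the mature strand, directs pairing with targets. Mir126b is annotated on the opposite strand of the same place.

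The 4 mature sequences are shown because they decide whether reads of the members can be told apart, with the seed in capitals.

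miR-126a-3p: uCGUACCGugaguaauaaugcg

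miR-126a-5p: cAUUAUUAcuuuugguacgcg

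miR-126b-3p: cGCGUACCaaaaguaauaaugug

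miR-126b-5p: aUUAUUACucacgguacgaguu

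The 2 hairpins follow, with the mature arms in capitals.

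Mir126a: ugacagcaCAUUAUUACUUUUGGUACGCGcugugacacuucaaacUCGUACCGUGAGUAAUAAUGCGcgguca

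Mir126b: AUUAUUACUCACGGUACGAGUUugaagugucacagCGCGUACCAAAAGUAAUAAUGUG

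The hairpins are from RefSeq, and positions are in GRCm38.p6. The mature sequence of miR-126a-5p was taken from the deposited tables and located in the RefSeq hairpin, and the other 3 matched RefSeq. The Mir126a hairpin (73 nt) lies at chr2:26591357-26591429 on the plus strand and Mir126b (58 nt) at chr2:26591363-26591420 on the minus strand, so that the whole of Mir126b is complementary to a stretch inside Mir126a. The 5p strand of Mir126b pairs with the 3p strand of Mir126a over 19 uninterrupted bases, and its 3p strand pairs with the 5p strand of Mir126a over 21. Complementary strands are not the same sequence: the closest mature miRNA to miR-126a-3p was miR-126b-3p, with 5 mismatches, and the closest to miR-126a-5p was miR-126b-5p, with 4. Of the 1405 miRNA names whose sequence the deposited tables give, no other shared a seed with any of the 4. In the GENCODE annotation of GRCm38 the Mir126a hairpin falls in an intron of 8 coding transcripts of Egfl7 (chr2:26580014-26593120, plus strand), which is intron 7 of the 10-exon transcript (chr2:26591064-26591663). It also falls in an exon of 1 noncoding Egfl7 transcript and in an intron of the overlapping coding gene Gm20532.

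Total miRNA counts were 15060553 to 20106226 in the colon libraries and 21127134 to 32944792 in the blood libraries. Some mature sequences are listed under more than 1 name. The tissue markers separated the libraries as titled. The erythroid miRNAs (miR-451a, the miR-144 arms and the 2 miR-486 names, which share 1 sequence and are both counted) held 76.3% to 83.9% of blood counts and 0.283% to 0.501% of colon counts. The epithelial list held 7.15% to 19.1% of colon counts and 0.0829% to 0.149% of blood counts, and the smooth muscle and stroma list held 26.98% to 37.4% and 0.0156% to 0.0502%.

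The labels conflict with the grouping used here. Mice 1, 7 and 9 were taken as DSS and mice 2, 4 and 8 as control, as the study's heatmaps name the libraries, whereas the disease field of the labels puts mice 1, 2 and 4 in colitis and mice 7, 8 and 9 in control. The 2 tissue fields of the labels also name opposite tissues for each library, and the titles were followed. Under the grouping of the disease field, the log2 fold change of miR-126a-3p was -0.071 (SE 0.24) in colon and 0.63 (SE 0.55) in blood, that of miR-126a-5p in colon was -0.18 (SE 0.24), and edgeR's quasi-likelihood test called 0 miRNAs in either tissue, with 20 in colon and 14 in blood at an unadjusted p under 0.05. Every statement on DSS below therefore rests on the heatmap grouping, while the differences between colon and blood do not depend on it.

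In colon, miR-126a-3p was higher in all 3 DSS mice than in any control mouse. Levels are given as CPM, counts scaled to a common library size, with factors set within each tissue by edgeR's trimmed mean of M-values (TMM). The values were 7212, 6819 and 6719 CPM in DSS mice 1, 7 and 9, and 5453, 5045 and 5066 CPM in control mice 2, 4 and 8. The 3 mice of each group lay close together, and the groups did not overlap: the lowest DSS mouse was 1.23 times the highest control mouse. Means were 6917 ± 260 CPM (SD, n = 3) with DSS and 5188 ± 230 CPM (SD, n = 3) in controls, a log2 fold change of 0.41 (SE 0.12), or 1.33-fold, below the 1.5-fold limit of significantly differentially expressed (SDE) miRNAs. Over the 542 miRNAs tested in colon the median log2 fold change was 0.043, and 148 of them had a higher value than miR-126a-3p. The same separation upwards was seen for 22.5% of the colon miRNAs. In bulk tissue, fewer or more cells of a type and less or more RNA per cell cannot be told apart.

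miR-126a-3p was one of the abundant miRNAs of the colon. Its raw counts were 80828 to 173607, or 0.446% to 0.863% of a library, and it ranked 20 to 24 in the DSS libraries and 27 to 31 in the control libraries. The 2 miRNAs next above it in the control mean were miR-99a-5p (log2 fold change 0.20, SE 0.15) and miR-24-3p (-0.090, SE 0.12), and the 2 next below were miR-100-5p (0.34, SE 0.20) and miR-145a-3p (-0.075, SE 0.12). Since miR-126a-3p was chosen on its DSS-to-control difference, its place among these 5 miRNAs of similar level is not evidence.

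In blood, miR-126a-3p was lower in all 3 DSS mice than in any control mouse. DSS mice 1, 7 and 9 had 16.1, 13.4 and 16.1 CPM, and control mice 2, 4 and 8 had 56.6, 30.8 and 37.5 CPM. The DSS mice were spread 1.20-fold and the controls 1.84-fold, with mouse 2 the highest control and mouse 4 the lowest. With total counts in place of TMM, the spreads were 1.70-fold and 2.22-fold. Means were 15.2 ± 1.56 CPM (SD, n = 3) with DSS and 41.6 ± 13.4 CPM (SD, n = 3) in controls, a log2 fold change of -1.45 (SE 0.28), or 2.74-fold lower. The median over all 484 miRNAs tested in blood was -0.053, and 11 of them had a lower value. The same separation downwards was seen for 9.92% of the blood miRNAs.

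The blood values rest on fewer reads: 640, 415 and 348 counts in DSS mice 1, 7 and 9 and 1259, 535 and 1104 in control mice 2, 4 and 8. The miRNA ranked 147 to 163 with DSS and 97 to 130 in controls. Its neighbours in the control mean were miR-30b-5p (log2 fold change 0.45, SE 0.29) and miR-326-3p (-0.054, SE 0.32) above, and miR-210-3p (0.38, SE 0.28) and miR-215-5p (-0.85, SE 0.23) below. The log2 fold change of miR-126a-3p was the lowest of these 5, on the contrast that chose it, so this is not evidence.

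**Figure D1:**
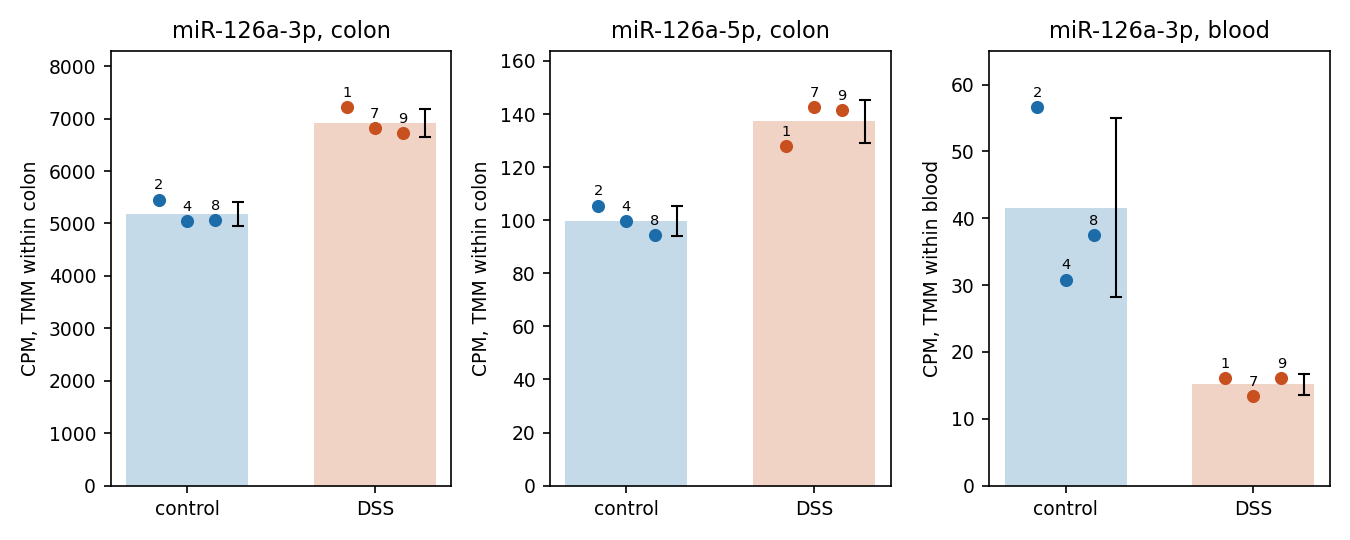
Levels of miR-126a-3p and miR-126a-5p in colon and of miR-126a-3p in blood, in CPM with TMM factors of the tissue (vertical axis), in control (blue) and DSS (orange) mice; points are mice with their numbers, bars are means and error bars are SD (n = 3). Both arms sit higher in all DSS mice in colon, and miR-126a-3p sits at 13.4 to 16.1 CPM in DSS blood against 30.8 to 56.6 CPM in controls.

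The DSS and control ranges of miR-126a-3p stayed apart in both tissues under all 4 scalings examined, which were TMM within the tissue, TMM over all 12 libraries, total counts and the authors' normalized signal. The gap in blood was narrow with total counts, at 21.4 CPM in the highest DSS mouse against 22.6 CPM in the lowest control mouse. With total counts the median of all miRNAs moved by over 0.1, to 0.26 in colon and 0.15 in blood, and miR-126a-3p moved with it to 0.63 and -1.22. Relative to the median of all miRNAs the TMM values were 0.37 in colon and -1.40 in blood, which another scaling leaves nearly the same by construction.

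The other arm, miR-126a-5p, followed the same direction in colon. DSS mice 1, 7 and 9 had 128, 142 and 141 CPM and control mice 2, 4 and 8 had 106, 99.7 and 94.3 CPM, with no overlap. Means were 137 ± 8.06 CPM and 99.8 ± 5.63 CPM (SD, n = 3 each), and the log2 fold change was 0.46 (SE 0.13). Since both arms come from 1 hairpin in the same libraries, the 5p arm is not a separate replicate of the 3p arm. In blood miR-126a-5p was close to the limit of counting, with 9, 2 and 3 counts in DSS mice 1, 7 and 9 and 16, 3 and 9 counts in control mice 2, 4 and 8. These 14 and 28 counts in all had overlapping groups, and the miRNA was removed by the filter on low counts in blood.

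The antisense gene gave almost no reads. miR-126b-3p had 2 counts over the 12 libraries, 1 each in the blood of control mice 2 and 8, and miR-126b-5p had 3, all in control colon (1 in mouse 4 and 2 in mouse 8). Both were at or under the floor of 3 counts in each library, which corresponds to 0.149 to 0.199 CPM in colon and 0.0911 to 0.142 CPM in blood, and neither passed a filter. No fold is given for them. Of the 4 members, 2 thus passed the filter in colon, 1 in blood, and 2 in the fit over all libraries, miR-126a-5p there through its colon counts.

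As background for these contrasts, the quasi-likelihood test of edgeR (Benjamini-Hochberg adjusted) called 55 of 542 miRNAs SDE in colon (32 upregulated and 23 downregulated), which is 10.1%. In blood it called 0 of 484, or 0%, with 56 at an unadjusted p under 0.05, and DESeq2, run without the filter on low counts, called 9 of 1121. The colon split moved with the scaling, to 38 upregulated and 9 downregulated with total counts and to 6 and 10 with median-of-ratios (RLE) factors. The colon calls also rested on single mice: without mouse 2, 4, 7 or 8, 0 miRNAs were called, against 44 without mouse 1 and 37 without mouse 9.

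Between the tissues, both arms of miR-126a were far higher in colon. In 1 edgeR fit over all 12 libraries, averaging DSS and control mice, miR-126a-3p was higher in colon by 7.15 on the log2 scale (SE 0.24), 142-fold, with an adjusted p of 3.44e-12. miR-126a-5p was higher by 8.11 (SE 0.38), given without a test because it passed the filter on low counts through colon, with 2 to 16 counts in blood. This contrast is separate from the DSS contrasts that chose the members. Calls were the rule in it, with 606 of 680 miRNAs (89.1%) past the threshold and a median difference of 0.86, and 88 miRNAs had a larger difference in favour of colon than miR-126a-3p. On log2(CPM + 1) the difference was 7.13 for miR-126a-3p, higher in colon in 6 of 6 mice, with an exact two-sided permutation p of 0.00216, the smallest that 6 against 6 libraries can give. For miR-126a-5p it was 6.11, also higher in colon in 6 of 6 mice. With mouse as a block, the edgeR differences were 7.18 and 8.21, and the call for miR-126a-3p held. RNA was extracted from blood and colon with different kits, which cannot be told apart from the tissue.

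On the scale shared by all 12 libraries the levels of miR-126a-3p ran, from high to low, from colon of DSS mice (5272 ± 176 CPM) to colon of controls (4072 ± 234 CPM), blood of controls (49.0 ± 15.3 CPM) and blood of DSS mice (21.9 ± 4.44 CPM; SD, n = 3 each). No 2 neighbouring groups in that order overlapped. Within single mice, colon held 203, 258 and 279 times the blood level in DSS mice 1, 7 and 9, and 70.1, 123 and 74.0 times in control mice 2, 4 and 8. miR-126a-5p had the same order, at 105 ± 7.50, 78.4 ± 5.56, 0.466 ± 0.305 and 0.211 ± 0.146 CPM (SD, n = 3 each), and there the 2 blood groups overlapped.

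The effect of DSS on miR-126a-3p differed between colon and blood by 1.87 on the log2 scale, as the difference of the separate fits, and by 1.54 (SE 0.37) in the common fit. The common fit gave 1.52 (SE 0.65) for miR-126a-5p. No test is given for these, because the members were chosen for this difference. Over all 680 miRNAs of the common fit, the interaction of treatment and tissue was called for 0 miRNAs by edgeR (0%), with 94 at an unadjusted p under 0.05. DESeq2, run without that filter, called 37 of 1405.

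The 3p arm dominated in both tissues. A ratio of arms is taken within 1 library, needs no scaling and was not used to choose the members. In colon there were 56.4, 47.9 and 47.5 counts of miR-126a-3p for each count of miR-126a-5p in DSS mice 1, 7 and 9, and 51.7, 50.6 and 53.7 in control mice 2, 4 and 8. In blood the ratios were 71.1, 208 and 116 in DSS mice 1, 7 and 9 and 78.7, 178 and 123 in control mice 2, 4 and 8. The colon ratios were thus near 50 in every mouse, and every blood ratio was above every colon ratio.

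On the log2 scale the mean arm ratio was 5.68 ± 0.095 in colon and 6.90 ± 0.62 in blood (SD, n = 6 each), a difference of -1.23, lower in colon in 6 of 6 mice (exact two-sided permutation test, p = 0.00216; exact sign-flip test within mice, p = 0.0312; both the smallest possible). Blood counts of the 5p arm were only 2 to 16, so the difference depends on small numbers. With 10 added to each count it was 0.35, in the other direction (exact permutation p = 0.0628). Adding 10 itself lowers ratios built on so few 5p counts, so that value cannot decide the direction. Summed over libraries, the 5p arm made up 1.94% of the counts of both arms in colon (12703 of 5p beside 641361 of 3p) and 0.967% in blood (42 beside 4301). The ratios of DSS and control mice overlapped within each tissue, with mean log2 ratios of 5.66 ± 0.14 and 5.70 ± 0.044 in colon and 6.90 ± 0.77 and 6.91 ± 0.59 in blood (SD, n = 3 each). Among 128 miRNA genes with both arms counted in both tissues, the median colon-to-blood difference of this log2 ratio was -0.24, with quartiles of -1.35 and 1.11, and 37 were lower than miR-126a, at -1.02 from summed counts.

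**Figure D2:**
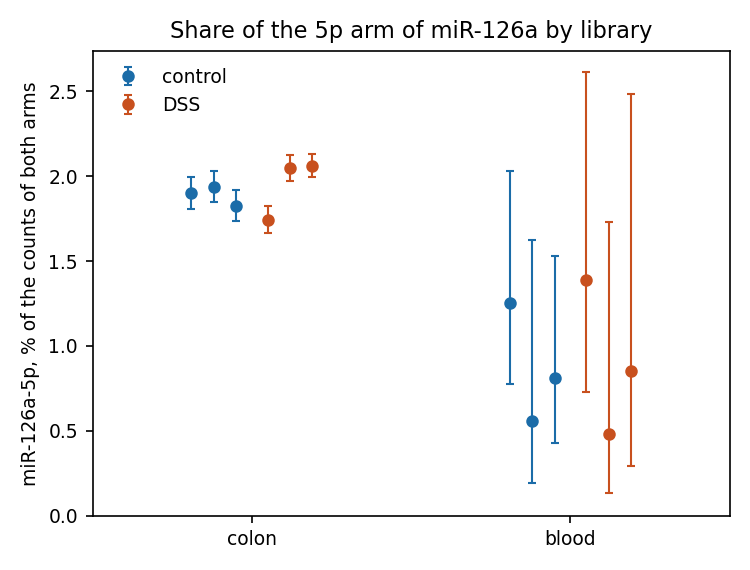
Share of miR-126a-5p among the counts of both arms, in percent (vertical axis), for each library of colon and blood, control in blue and DSS in orange; error bars are 95% Wilson intervals, which cover counting error only. Colon libraries lie between 1.74% and 2.06% and blood libraries between 0.480% and 1.39%, with wide intervals in blood.

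Among the 357 miRNAs tested in both tissues, 12 (3.36%) were, as miR-126a-3p, higher in every DSS mouse in colon and lower in every DSS mouse in blood. The reverse was seen for 2, miR-181d-5p and miR-320-3p, while 6 were higher and 8 lower in both tissues without overlap. By the difference of the log2 fold changes miR-126a-3p stood in place 3 of the 12, after miR-20b-5p (1.11 in colon and -0.96 in blood) and miR-379-5p (0.67 and -1.26). Just after it stood miR-363-3p (1.00 and -0.84), miR-374b-5p (0.40 and -1.44) and miR-212-5p (1.41 and -0.42), which shares a cluster with miR-132. miR-374b-5p had nearly the same pair of values as miR-126a-3p. These were followed by miR-6900-3p, miR-541-5p, miR-146b-5p, an inflammation-induced miRNA, and miR-503-3p, and last came let-7i-5p and miR-330-5p.

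The 12 differed widely in level. miR-20b-5p averaged 0.814 CPM in control colon and 1.27 CPM in control blood, and miR-379-5p averaged 397 CPM and 1.05 CPM. miR-146b-5p averaged 1133 CPM and 66.6 CPM, miR-374b-5p 26.8 CPM and 108 CPM, and miR-330-5p 32.7 CPM and 31.9 CPM. let-7i-5p was at 20129 CPM in control colon and 35696 CPM in control blood, where its log2 fold change was -1.09 (SE 0.25) against 0.13 (SE 0.13) in colon. Of the 11 other than miR-126a-3p, 4 lie on the X chromosome in RefSeq (miR-20b, miR-363, miR-374b and miR-503), beside 36 of the 308 tested miRNAs with a position (11.7%). miR-20b and miR-363 are of 1 cluster.

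**Figure D3:**
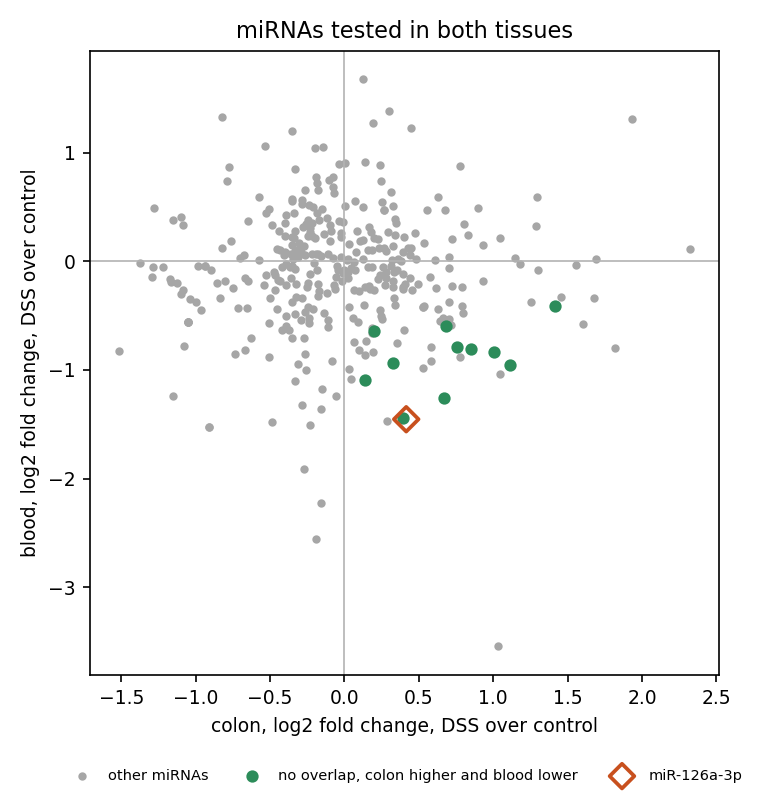
log2 fold change of DSS over control in colon (horizontal axis) and blood (vertical axis) for the 357 miRNAs tested in both tissues; green points were higher in every DSS mouse in colon and lower in every DSS mouse in blood, and the orange diamond is miR-126a-3p at 0.41 and -1.45. The green point inside the diamond is miR-374b-5p, and most of the grey points lie nearer to 0 in blood than miR-126a-3p.

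The miRNAs whose level followed miR-126a-3p most closely over the 6 libraries of a tissue were different in colon and blood. Pearson's r of log2(CPM + 1) is given as a description, since the 6 libraries share the DSS-to-control step and their scaling. Among 271 colon miRNAs with a mean of at least 10 CPM, the closest were miR-300-3p (r = 0.997), miR-434-3p (0.990), miR-411-5p (0.985), miR-370-3p (0.982) and miR-434-5p (0.976). All 5 lie on the plus strand of chromosome 12 within 130 kb (chr12:109594528-109724384, GRCm38.p6), in the imprinted Dlk1-Dio3 region. Their log2 fold changes with DSS in colon were 0.52 to 0.70. The partner arm miR-126a-5p, with r = 0.933, came 20th.

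Among 182 blood miRNAs the closest were miR-1839-5p (r = 0.980), miR-146b-5p (0.972), let-7i-5p (0.956), miR-363-3p (0.956) and miR-503-5p (0.933). Their log2 fold changes in blood ran from -1.09 for let-7i-5p to -0.38 for miR-1839-5p. Among the 151 miRNAs that could be compared in both tissues, the lower of the 2 correlations was highest for let-7i-5p (0.888), miR-374b-5p (0.848) and miR-146b-5p (0.717).

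Of 20 other miRNAs known from endothelial cells and angiogenesis, 3 were upregulated and 1 downregulated in colon (20%, beside 10.1% over all miRNAs), and the median log2 fold change of the list was 0.10 beside 0.043 over all miRNAs. The upregulated ones were miR-132-3p, an angiogenic miRNA (1.55, SE 0.24), miR-218-5p (0.90, SE 0.19) and miR-155-5p, a miRNA of activated immune cells and endothelium (1.29, SE 0.33), and the downregulated one was the hypoxia miRNA miR-210-3p (-1.15, SE 0.23), with edgeR adjusted p of 0.0422, 0.0431, 0.0491 and 0.0431. This list and those below were chosen with earlier results of these data known. Their shares and medians beside those over all miRNAs are therefore a description, not a test of the lists. In blood, where no miRNA was called, the median over the 19 tested was 0.28 beside -0.053 over all. The most abundant of the list in blood, miR-92a-3p, had a log2 fold change of -0.32 (SE 0.28), and in colon miR-10a-5p had 1.46 (SE 0.52). miR-503-5p was positive in colon (0.77, SE 0.38), where its groups overlapped, and negative in blood (-0.88, SE 0.27). The same signs were seen for miR-10a-5p, miR-132-3p, miR-130a-3p, miR-17-5p and miR-20a-5p. Over the list, 12 values were positive and 8 negative in colon, and 12 were positive and 7 negative in blood. The summed list was at 29230 to 81516 CPM in DSS colon and 28285 to 31104 CPM in control colon, and at 15169 to 25077 CPM and 22118 to 27924 CPM in blood, with overlapping ranges in both tissues. As a share of total counts the list did not overlap in colon, at 3.76% to 7.55% with DSS and 2.74% to 2.84% in controls. Much of the colon sum was 1 member, miR-10a-5p, at 13136 to 67705 CPM with DSS and 13832 to 14886 CPM in controls. The list sum is therefore not a measure of all its members.

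The summed platelet-abundant list was lower in the blood of all 3 DSS mice (94061 to 101822 CPM) than in that of any control mouse (103886 to 152224 CPM) with TMM, while as a share of total counts the groups overlapped, at 9.58% to 12.5% and 8.95% to 13.5%. The median log2 fold change of its 18 members in blood was -0.084 beside -0.053 over all, and 0 were called, as for all blood miRNAs, with 8 values positive and 10 negative. The 4 let-7 members, chosen after their values were seen, carried the lower sum: together they were at 20333 to 24595 CPM with DSS and 37589 to 76501 CPM in controls, while the other 14 were at 69727 to 78953 CPM and 66297 to 75824 CPM, with overlap. As a share of total counts the let-7 members were at 2.08% to 3.23% with DSS and 3.38% to 6.79% in controls. The blood log2 fold changes were -1.92 (SE 0.58) for let-7f-5p and -1.36 (SE 0.47) for let-7g-5p, both with overlapping groups. They were -1.33 (SE 0.45) for let-7a-5p, -1.09 (SE 0.25) for let-7i-5p and 1.31 (SE 0.29) for miR-223-3p. None was past the threshold with edgeR. The paper, using DESeq2, reports let-7f-5p, let-7i-5p and miR-223-3p as changed in blood. In colon 2 of 18 (11.1%, beside 10.1% over all miRNAs) were upregulated, miR-223-3p, a miRNA of myeloid cells and platelets (1.93, SE 0.41), and the inflammation-induced miR-146a-5p (0.83, SE 0.18), each with an edgeR adjusted p of 0.0431, and the median was -0.12.

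Lists of other cell types were read in the same colon libraries. Over all colon miRNAs 10.1% were called. Since these lists too were chosen with earlier results known, their counts of called miRNAs beside that share are a description only. In the epithelial list 4 of 9 were downregulated (miR-192-5p, miR-194-5p, miR-141-3p and miR-429-3p) and 0 upregulated, with a median of -1.08, and its summed level was 55653 to 136222 CPM with DSS against 163013 to 204162 CPM in controls, without overlap. In the leukocyte list 3 of 8 were upregulated (miR-223-3p, miR-223-5p and miR-155-5p), with a median of 1.17 and overlapping summed levels of 2005 to 2811 CPM with DSS and 1862 to 2225 CPM in controls. In the smooth muscle and stroma list 1 of 9, the fibroblast miRNA miR-199a-5p (0.62, SE 0.12), was upregulated, with a median of -0.019, and miR-199a-3p was at 0.53 (SE 0.12), under the 1.5-fold limit. The erythroid list had 0 of 4 called in colon (median 0.13), at 3232 to 4730 CPM with DSS and 3127 to 4288 CPM in controls, so its summed ranges overlapped. The part of these values in the level of miR-126a-3p was not tested.

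In blood, where 0 of all miRNAs were called, the medians of the erythroid (5 tested), leukocyte (8), smooth muscle and stroma (9) and epithelial (9) lists were -0.23, 0.27, -0.42 and -0.26, beside -1.45 for miR-126a-3p. The summed erythroid level, which makes up most of the blood counts, was at 579912 to 864794 CPM with DSS and 636782 to 1142910 CPM in controls, with overlapping ranges, and its part in the blood values was not tested. The smooth muscle and stroma sum, at 220 to 278 CPM and 212 to 419 CPM in blood, also overlapped between the groups, as did the leukocyte sum, at 4826 to 5909 CPM and 3353 to 5433 CPM. The epithelial sum was just apart with TMM, at 950 to 1123 CPM with DSS and 1129 to 1324 CPM in controls, but overlapped as a share of total counts, at 0.0981% to 0.126% and 0.0829% to 0.149%. All 9 members had negative log2 fold changes, 3 of them without overlap, beside 9.92% lower without overlap over all blood miRNAs. Its part in the blood values was not tested either.

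**Figure D4:**
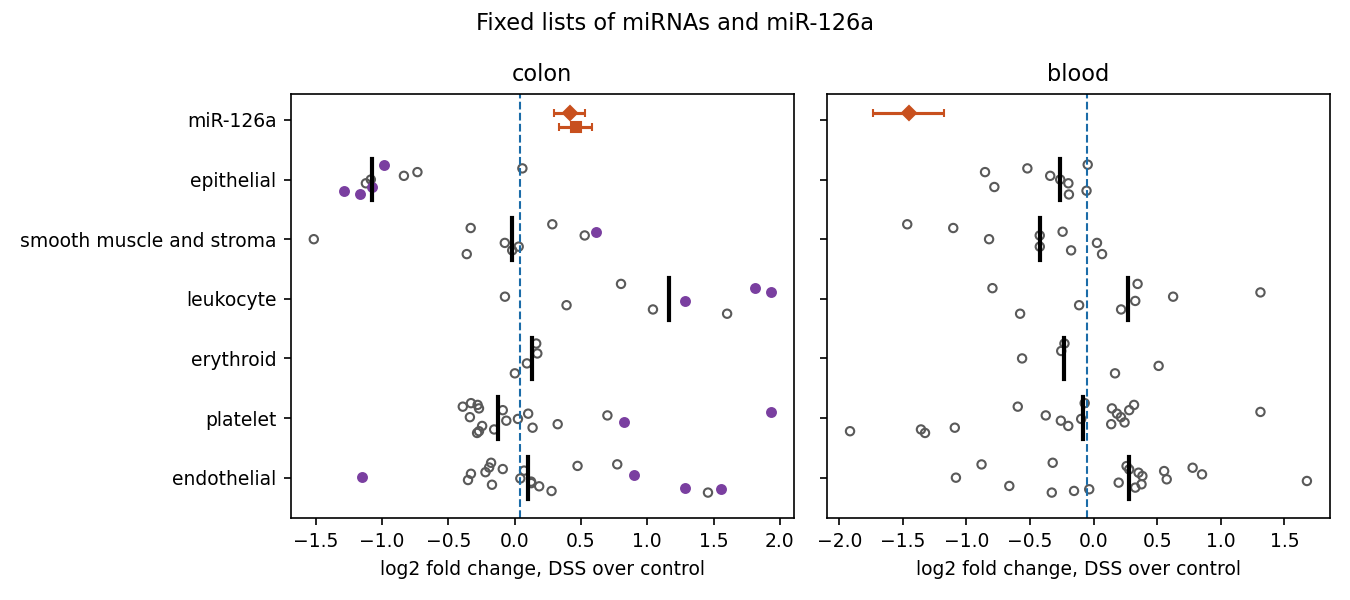
log2 fold change of DSS over control (horizontal axis) in colon and blood for the miRNAs of 6 lists and for miR-126a; filled purple points are SDE, open points are not, black lines are list medians and the dashed line is the median of all miRNAs tested. The orange diamond (miR-126a-3p) and square (miR-126a-5p) carry their SE, and miR-126a-3p in blood, at -1.45, lies below the median of every list.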

How the data were processed

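Small RNA was sequenced from colon and whole blood of 6 mice. The authors trimmed and collapsed the reads and counted mature miRNAs of miRBase 22 with miRDeep2 2.0.1.0, and the deposited counts are whole numbers per miRNA and library. The deposited normalized tables hold a signal that the authors made by dividing counts by DESeq2 1.22.2 size factors, 1 table for each tissue. Groups were taken as stated in the report, and the members and lists were chosen with earlier results of these data known. Counts were analysed with edgeR 4.0.16 in R 4.3.3 (filterByExpr, TMM, quasi-likelihood test, Benjamini-Hochberg adjustment over all miRNAs of a fit). An SDE miRNA had an adjusted p no higher than 0.05 and changed over 1.5-fold, and SE was obtained from the fold change and its F statistic. DESeq2 1.42.0, limma 3.58.1 on log2(signal + 1), other scalings and filters, and leaving out each mouse were alternatives. The exact tests used Python 3.11.15 on log2(CPM + 1), with a pseudocount of 1, or on ratios of counts. Named miRNAs were the members, the 5 nearest by Pearson's r in each tissue and the 3 nearest in both, up to 10 sharing the pattern of miR-126a-3p (the remaining 2 were added to complete the count), the 2 neighbours in level on each side, and, of 6 lists, the miRNAs with an adjusted p of 0.05 or less and the most abundant. Of the let-7 members of the platelet list, 3 were named after their values were seen. The p-values measure the spread between these mice, and intervals and floors cover counting error only, since reads carry no molecular identifiers. Samples pair by mouse. Deviations from the group means correlated between the colon and blood of a mouse at r = -0.241 to 0.0577 over 288 miRNAs. The code was tested on simulated data. No library was left out of the reported values.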

Additional observations from a re-analysis of the deposited data

Results flagged for a closer look

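For 14 of the miRNAs measured in both tissues, all DSS mice moved one way against the controls in colon and the other way in blood. The values below are the log2 fold change in colon minus that in blood. For miR-126a-3p it was 1.87; this miRNA was chosen for the pattern and the difference was not tested. The larger differences were 2.07 for miR-20b-5p and 1.93 for miR-379-5p. Close to miR-126a-3p were miR-363-3p at 1.84, miR-374b-5p at 1.83 and miR-212-5p at 1.83. Next came miR-6900-3p at 1.66, miR-541-5p at 1.54, miR-146b-5p at 1.27, miR-503-3p at 1.26, let-7i-5p at 1.23 and miR-330-5p at 0.845. The other direction, lower in colon and higher in blood, was seen for miR-320-3p at -0.60 and miR-181d-5p at -0.78. The differences of these 13 other miRNAs were picked by the absence of overlap and were not tested one by one, and the edgeR interaction test over all 680 miRNAs called 0 of them, with 94 at an unadjusted p under 0.05. DESeq2, run without the filter on low counts, called 37 of 1405.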

How the results depend on the processing

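The tissue difference of miR-126a-3p kept its direction and call under all alternatives run, at 5.94 to 7.87. That of miR-126a-5p, given without a test, was 6.93 to 8.84, and could not be fitted with a minimum of 10 counts in every library. Mouse as a replicate block gave 7.18 and 8.21. The colon log2 fold change of miR-126a-3p was 0.35 with RLE factors, 0.30 with upper-quartile factors, 0.63 with total counts, 0.35 with DESeq2 and 0.35 with limma. For miR-126a-5p in colon it was 0.35 with upper-quartile factors and 0.68 with total counts. Under the disease field of the labels the values were -0.071, -0.18 and, for miR-126a-3p in blood, 0.63. Leaving out single mice gave 0.37 to 0.43 (3p, colon), 0.40 to 0.49 (5p, colon) and -1.57 to -1.12 (3p, blood). The arm ratio difference was -1.20 in control mice and -1.25 in DSS mice (each exact permutation p = 0.1, the smallest that 3 against 3 can give), 0.35 with 10 added, and -1.40 to -1.05 without single mice. The count of SDE miRNAs in colon was 76 without a filter, 75 with DESeq2, 16 with RLE, 8 with upper-quartile factors, 0 under the disease field, 0 in the common fit and 0 to 44 without single mice. In blood it was 25 without a filter, 9 with DESeq2, 1 in the common fit and 0 to 1 without single mice. The interaction count was 8 with RLE, 27 without a filter, 3 with at least 10 counts, 37 with DESeq2, 1 with the replicate block and 0 to 2 without single mice. The cause of these shifts was not tested. The groups held 3 mice each, and depth limited miR-126a-5p in blood (2 to 16 counts) and both arms of miR-126b (0 to 2 counts).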
